A study of Mus musculus with 6 samples.

Results

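Cells of the zona fasciculata, the layer of the adrenal cortex that makes corticosterone in mice, carry enzymes and pumps that deal with the by-products and products of steroid synthesis. The 10 genes described here were chosen by symbol from 54532 genes in the count table: the aldo-keto reductases Akr1b7, Akr1b3 and Akr1b8, the exporters Abcb1b and Abcb1a, the aldehyde dehydrogenases Aldh1a1 and Aldh1a7, the microsomal glutathione transferase Mgst1, the steroid 5-alpha-reductase Srd5a1 and the electron carrier Cyb5a. All 10 passed the filter on low counts. Whole glands were sequenced in bulk, 3 labelled WT and 3 labelled VEGF/LysM, to ask how macrophage-derived VEGF-A bears on the gland as a whole. The labels give neither the allele, the strain, the age nor the sex, and they do not say whether replicates were separate animals, so a p given here reflects only how far these libraries scatter, and that scatter may be technical. LysM is another name of Lyz2, whose promoter drives Cre in myeloid cells in the widely used line. The labels do not say which cells were targeted here. Vegfa had 295, 241 and 332 CPM (counts scaled to a common library size) in the WT libraries and 180, 193 and 501 CPM in the VEGF/LysM libraries. The groups overlapped, with a log2 fold change, VEGF/LysM minus WT, of 0.0095 ± 0.41 (SE). Without WT replicate 3 alone it was 0.12 ± 0.40 (SE). Without replicate 3 of both groups, which also leaves out the highest Vegfa value, it was -0.52. That fit gave an unadjusted p of 0.0123 and an adjusted p of 0.9997 in edgeR's test. A whole gland holds many other cells that make Vegfa, and their part in these values was not tested. Lyz2 had 186, 275 and 263 CPM in the WT libraries and 132, 111 and 134 CPM in the VEGF/LysM libraries. Its groups did not overlap, with a log2 fold change of -0.94 ± 0.19 (SE; unadjusted p = 0.00182 and adjusted p = 0.999 in edgeR's test), or -0.88 ± 0.19 without WT replicate 3.

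Side-chain cleavage of cholesterol, the first step of steroid synthesis, releases isocaproaldehyde, a reactive aldehyde that Akr1b7 is known to reduce under the control of corticotropin. P-glycoproteins, which Abcb1a and Abcb1b encode in the mouse, pump steroids and drugs out of cells, and Abcb1b is the form known from the mouse adrenal cortex. Aldehyde dehydrogenases oxidise aldehydes such as retinal, Mgst1 joins glutathione to electrophiles and reduces lipid peroxides, Srd5a1 reduces steroid hormones in the A ring, and Cyb5a hands electrons to cytochrome P450 enzymes.

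WT replicate 3 stood apart from the other 5 libraries, and the values of the 10 genes are therefore given with and without it. The 16 genes of a hepatocyte marker list summed to 89814 CPM there, against 397 and 489 CPM in the other WT libraries and 260, 511 and 1100 CPM in VEGF/LysM (1099.91 in replicate 3). All 16 were detected in WT replicate 3, whereas Apob, Fga, Fgb and Mup20 had 0 counts in both other WT libraries. Cyp2e1, Hp, Trf and Ahsg had counts in every library and give most of the sum outside WT replicate 3. Kidney tubule markers (10 of 10 detected) summed to 44.7 CPM in WT replicate 3 against 0.293 to 4.18 CPM elsewhere, and lymphocyte markers (7 of 7) to 1006 CPM against 60.8 to 268 CPM. The 12 genes of the fasciculata steroid synthesis list took 2.49% of the counts of WT replicate 3 and 4.85% to 5.93% of the others. Counts of a whole gland cannot place any of the 10 genes in a cortical layer. Library totals ran from 16476879 to 18671950 counts.

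Akr1b7 was, with Mgst1, the most abundant of the 10 genes per transcript length, and it showed the widest gap between VEGF/LysM and the first 2 WT libraries. It is encoded on chromosome 6, 34412334 to 34423142, plus strand (ENSMUSG00000052131, GRCm38). Its level, scaled by the trimmed mean of M-values (TMM), was 636, 455 and 1449.57 CPM in WT replicates 1, 2 and 3 and 1073, 1106 and 1230.15 CPM in VEGF/LysM. The 3 VEGF/LysM libraries were close to each other and stood above WT replicates 1 and 2. On this scale WT replicate 3 stood above all of them, so the groups overlapped. Per transcript length, scaled to the same total rather than by TMM, the WT libraries had 1115, 865 and 1863. The VEGF/LysM libraries had 2001, 1964 and 2239 there, so the groups did not overlap. The place of WT replicate 3 thus depended on the scaling. With all 6 libraries the log2 fold change, VEGF/LysM minus WT, was 0.42 ± 0.42 (SE), with a 95% interval of -0.56 to 1.41. Akr1b7 did not pass edgeR's quasi-likelihood test (adjusted p = 0.999 over all genes). Without WT replicate 3 the mean of the VEGF/LysM libraries was 2.08 times that of WT replicates 1 and 2, and the log2 fold change was 1.05 ± 0.20 (SE; 0.61 to 1.502). That difference had an unadjusted p of 0.000481 in edgeR's test and an adjusted p of 1.0 over 16659 genes. Without replicate 3 of both groups the log2 fold change was 1.003. That fit gave an unadjusted p of 0.00101 and an adjusted p of 0.9997 in edgeR's test.

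The stretch of sequence just before the Akr1b7 start is shown because this gene separated VEGF/LysM from the first 2 WT libraries most widely. It runs from 250 to 31 bases before the RefSeq start (GRCm38.p6, chr6:34412112-34412331, plus strand). Capitals mark the reverse complement of AAGGTCA, the half-site of the steroidogenic factor NR5A1, and both matches to CCAAT.
Akr1b7: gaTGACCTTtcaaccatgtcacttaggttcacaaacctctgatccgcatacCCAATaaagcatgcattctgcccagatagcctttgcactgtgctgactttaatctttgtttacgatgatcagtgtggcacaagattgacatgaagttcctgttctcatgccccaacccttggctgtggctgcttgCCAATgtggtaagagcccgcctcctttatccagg
AAGGTCA on either strand occurred in 4.08% and CCAAT in 33.8% of 32851 promoter windows of the same 250 bases in the RefSeq table. Promoters were matched for 8 of the 10 genes, and of these Akr1b7 was the 1 with an AAGGTCA match. A match is a description of letters and not a shown binding site.

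**Figure D1:**
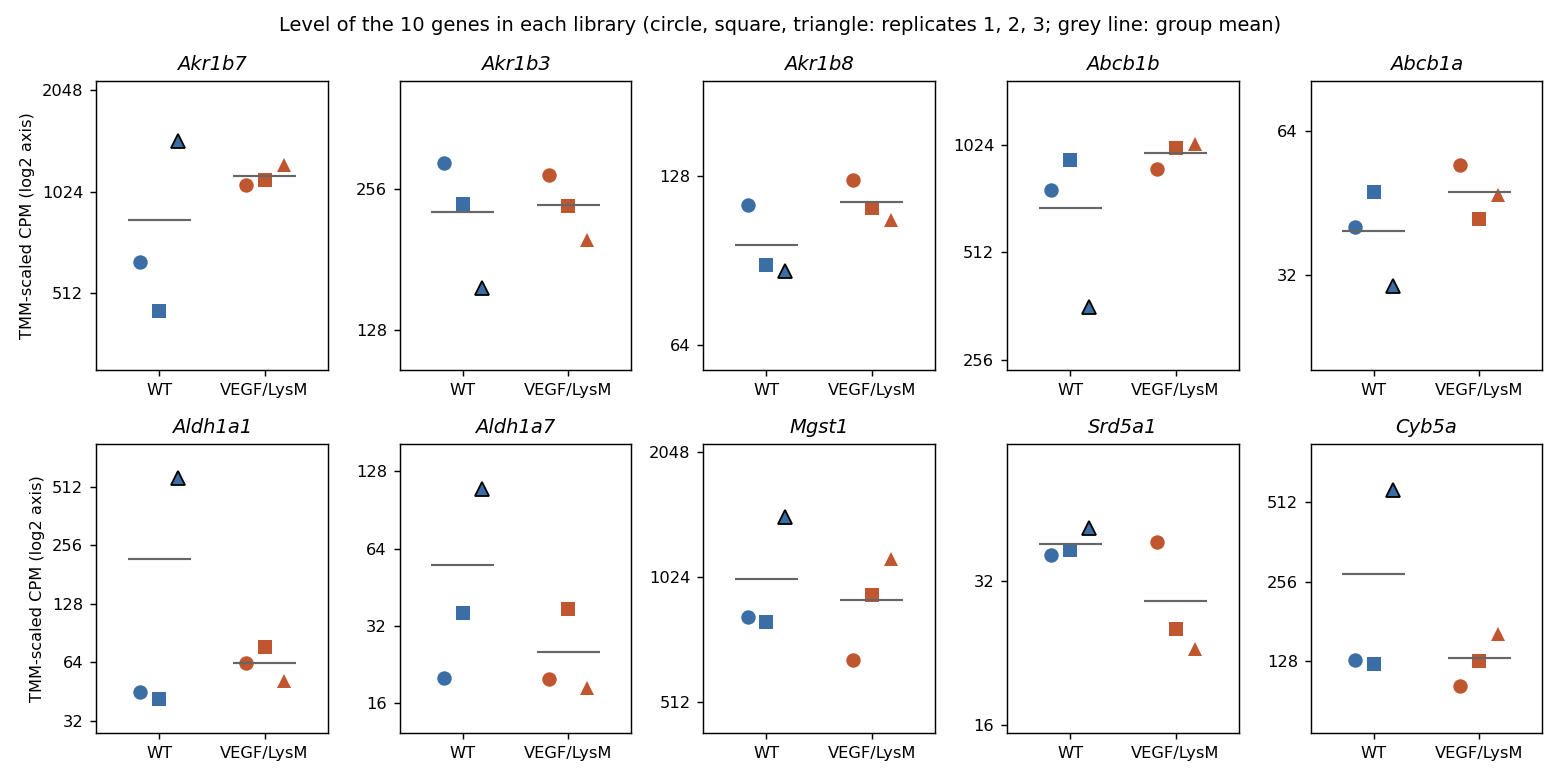
TMM-scaled CPM of each of the 10 genes (log2 axis) in the 3 WT libraries (blue) and the 3 VEGF/LysM libraries (orange), with grey lines at the group means and WT replicate 3 outlined in black. WT replicate 3 stands far above all other points for Aldh1a1 (568 CPM), Aldh1a7 (109 CPM) and Cyb5a (569 CPM), and below all others for Abcb1b (359 CPM).

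Set against the cortex itself, Akr1b7 gave 11.9 and 9.39 counts per 1000 counts of the 12 fasciculata steroid genes in WT replicates 1 and 2, 18.6, 23.2 and 23.9 in VEGF/LysM, and 45.2 in WT replicate 3. The order of the libraries was thus the same as on the CPM scale, with WT replicate 3 further out. Scarb1, the receptor through which adrenal cells take up cholesterol from high-density lipoprotein, had the profile nearest to that of Akr1b7 among 10515 genes with a mean of at least 10 CPM. Their log2 CPM values, each centred over the 6 libraries, differed by a root mean square of 0.22. Scarb1 had 1417, 1097 and 2302 CPM in the WT libraries and 2142, 1819.59 and 2142 CPM in the VEGF/LysM libraries. On the CPM scale it was, like Akr1b7, lowest in WT replicates 1 and 2 and highest in WT replicate 3. Its log2 fold change was 0.34 with all libraries (adjusted p = 0.999 in edgeR's test) and 0.69 ± 0.19 (SE) without WT replicate 3, where its unadjusted p was 0.00626 (adjusted p = 1.0). The next nearest profiles were those of St3gal1, a sialyltransferase (0.23), and Fgfr4, a fibroblast growth factor receptor (0.24).

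Akr1b3 and Akr1b8, in contrast to Akr1b7, were lowest in WT replicate 3 on the CPM scale. Per 1000 fasciculata counts they were not: Akr1b8 was highest there (2.70, against 1.83 to 2.35), and Akr1b3 (4.90) lay within the other libraries (3.87 to 5.45). Akr1b3 is aldose reductase, which reduces glucose to sorbitol and also acts on aldehydes and prostaglandins (chromosome 6, 34302434 to 34317478, minus strand). The WT libraries read 291, 238 and 157 CPM, and the VEGF/LysM libraries 275, 235 and 199 CPM. Its values overlapped throughout, and the lowest was that of WT replicate 3. For Akr1b3 the log2 fold change was 0.048 ± 0.25 (SE; -0.55 to 0.64), and it turned to -0.16 ± 0.18 without WT replicate 3. Akr1b8, a relative induced by growth factors (chromosome 6, 34354119 to 34368463, plus strand), had WT values of 114, 88.7 and 86.7 CPM and VEGF/LysM values of 126, 112 and 107 CPM. WT replicate 1 lay among the VEGF/LysM values and the other 2 WT libraries lay below them. VEGF/LysM minus WT, the log2 fold change of Akr1b8 was 0.25 ± 0.15 (SE; -0.11 to 0.62) with all libraries and 0.18 ± 0.16 without WT replicate 3. Akr1b8 gave 15.2% and 16.3% of the summed counts of Akr1b7 and Akr1b8 in WT replicates 1 and 2, 5.64% in WT replicate 3 and 7.99% to 10.5% in VEGF/LysM.

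The exporter Abcb1b was the P-glycoprotein gene of these glands, with 92.2% to 96.0% of the counts of the pair in every library. Abcb1b (chromosome 5, 8798147 to 8866315, plus strand) had 766, 926 and 359 CPM in the WT libraries and 879, 1006 and 1031 CPM in the VEGF/LysM libraries. The other 5 libraries lay within 1.35 times of each other, and the lowest of them was 2.14 times WT replicate 3. Abcb1b was the 1 gene of the 10 with a value in WT replicate 3 of at most 1/2 of the next lowest library, which held for 2.47% of all genes tested. Its log2 fold change was 0.51 ± 0.34 (SE; -0.30 to 1.31) with all libraries and 0.20 ± 0.18 (-0.20 to 0.60) without WT replicate 3, and it passed in neither fit (edgeR, adjusted p = 0.999 and 1.0). Per 1000 fasciculata counts it gave 11.2 in WT replicate 3 against 14.3 to 21.1 elsewhere, which again made WT replicate 3 the lowest but by a smaller gap. In a bulk gland, fewer cells of a type and less RNA per cell cannot be told apart. The nearest profiles were those of Casp12, a caspase of the endoplasmic reticulum (root mean square difference 0.078 log2), Gulp1, an adaptor of engulfment (0.12), and Tgfbr3, a coreceptor of the TGF-beta family (0.12).

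Abcb1a (chromosome 5, 8660077 to 8748575, plus strand), the form known from gut and from the endothelium of the brain, stood far lower. Its WT libraries had 40.3, 47.6 and 30.4 CPM and its VEGF/LysM libraries 54.2, 41.9 and 47.0 CPM, with WT replicate 3 again the lowest. Per 1000 fasciculata counts it was not the lowest, with 0.946 in WT replicate 3 and 0.755 to 0.982 in the others. Its log2 fold change was 0.27 ± 0.20 (SE; -0.20 to 0.75), and 0.11 ± 0.17 without WT replicate 3. Of the 31-base words of Abcb1a, 21.4% also occurred in Abcb1b, and the longest coding transcripts of both shared an identical run of 338 bases. The submitters' processing notes name kallisto, which assigns reads by such words, so the split between both genes is uncertain. Summed over both genes, the WT libraries had 806, 974 and 389 CPM and the VEGF/LysM libraries 933, 1048 and 1078 CPM, so WT replicate 3 was the lowest whichever gene the reads belonged to.

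**Figure D2:**
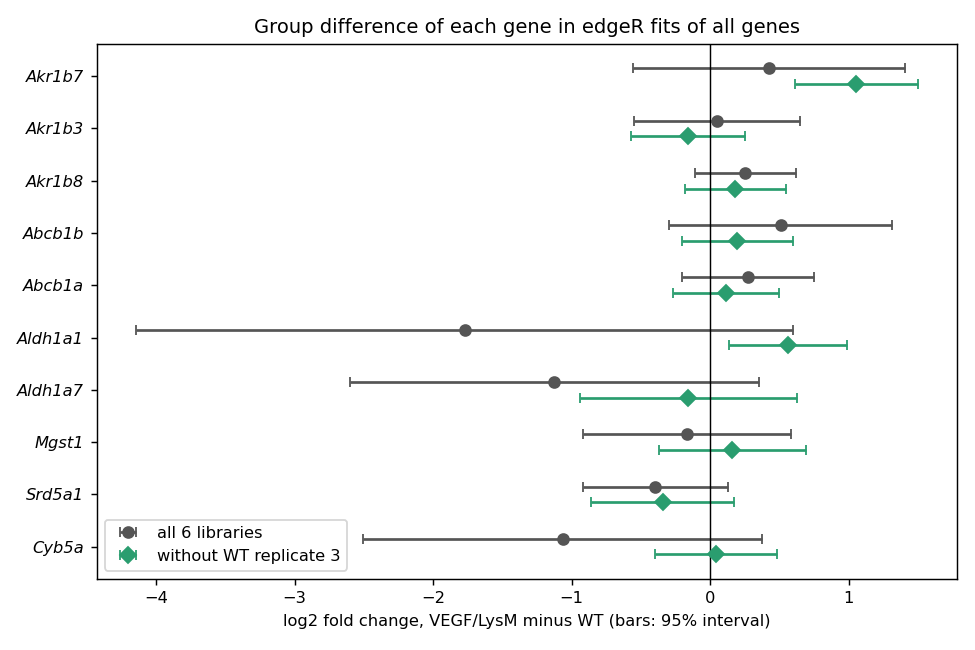
Log2 fold change of each gene, VEGF/LysM minus WT, with 95% intervals, from edgeR fits of all 6 libraries (grey) and of the 5 libraries without WT replicate 3 (green). With all 6 libraries each interval spans 0; without WT replicate 3 those of Akr1b7 (0.61 to 1.502) and Aldh1a1 (0.13 to 0.99) do not, and neither gene passed after adjustment over all genes.

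Aldh1a1, a retinaldehyde dehydrogenase on chromosome 19 (20492715 to 20643465, plus strand), stood out most in WT replicate 3. Its WT values were 44.7, 41.5 and 568 CPM, and its VEGF/LysM values were 63.1, 76.6 and 51.4 CPM. The WT replicate 3 value was 7.41 times the next highest library, while the 3 VEGF/LysM libraries all lay above WT replicates 1 and 2. With all libraries Aldh1a1 had a log2 fold change of -1.77 ± 1.001 (SE; -4.15 to 0.60), and without WT replicate 3 it turned to 0.56 ± 0.19 (0.13 to 0.99). The latter had an unadjusted p of 0.0156 in edgeR's test and an adjusted p of 1.0. Without replicate 3 of both groups it was 0.70, with an unadjusted p of 0.00266 and an adjusted p of 0.9997 in edgeR's test. Alb, which encodes the albumin of hepatocytes, gave 691864 of the counts of WT replicate 3, against 2869 for VEGF/LysM replicate 3 and 1 to 18 for the other libraries. VEGF/LysM replicate 3 had the lowest Aldh1a1 value of its group. Whether liver RNA contributed to the Aldh1a1 reading of WT replicate 3 was not tested. The 3 nearest profiles were those of Pxdc1 (0.082), Pck1, the first committed enzyme of gluconeogenesis (0.22), and Ehhadh, an enzyme of peroxisomal fatty acid oxidation (0.22). Pck1 read 4096 CPM in WT replicate 3 against 228 to 530.3 CPM elsewhere.

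Aldh1a7 (chromosome 19, 20692953 to 20727562, minus strand), the close relative and neighbour of Aldh1a1, had 20.1, 36.0 and 109 CPM in the WT libraries and 19.9, 37.3 and 18.4 CPM in the VEGF/LysM libraries. Here WT replicate 3 was 2.93 times the next highest library. Among the others the second replicate of each group was the highest, so the spread inside a group exceeded the difference between groups. Aldh1a7 had a log2 fold change of -1.13 ± 0.62 (SE; -2.60 to 0.35), and -0.16 ± 0.34 without WT replicate 3. Aldh1a7 and Aldh1a1 transcripts were identical at 89.3% of aligned bases, and 13.8% of the 31-base words of Aldh1a7 also occurred in Aldh1a1. The Aldh1a7 share of the pair was 24.0% to 46.4% in 5 libraries and 16.1% in WT replicate 3.

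The sequences just before the starts of this pair are shown because both genes were high in WT replicate 3. Each gives the 150 bases before a RefSeq start, in GRCm38.p6, at chr19:20601818-20601967 on the plus strand for the downstream one of the Aldh1a1 starts and at chr19:20727557-20727706 on the minus strand for Aldh1a7. Capitals mark the longest run of letters that both share, 65 bases that end 30 bases before the start.
Aldh1a1: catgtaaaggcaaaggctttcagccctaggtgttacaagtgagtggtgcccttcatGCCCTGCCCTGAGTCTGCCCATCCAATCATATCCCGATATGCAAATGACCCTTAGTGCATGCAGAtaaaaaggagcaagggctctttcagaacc
Aldh1a7: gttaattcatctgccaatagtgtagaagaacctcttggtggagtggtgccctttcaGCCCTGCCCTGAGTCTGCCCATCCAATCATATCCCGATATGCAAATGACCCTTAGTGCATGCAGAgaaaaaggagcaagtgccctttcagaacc
The run holds CCAAT and the octamer ATGCAAAT at the same distances from the start in both genes, 72 and 56 bases. The octamer, on either strand, was in 1.6% of all promoter windows of 250 bases.

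Cyb5a, the microsomal form of cytochrome b5 (ENSMUSG00000024646), was likewise high in WT replicate 3. The WT libraries had 129, 125 and 569 CPM, and those of VEGF/LysM 102, 128 and 163 CPM. Cyb5a had a log2 fold change of -1.07 ± 0.61 (SE; -2.51 to 0.37) with all libraries and 0.041 ± 0.19 (-0.40 to 0.48) without WT replicate 3. The value of WT replicate 3 was 3.50 times the next highest library, which was VEGF/LysM replicate 3, and the other 4 lay between 102 and 129 CPM. Both of these libraries also had the most Alb counts, but far apart, with 691864 in WT replicate 3 and 2869 in VEGF/LysM replicate 3. The part of liver RNA in the Cyb5a values was not tested. Cyp17a1, the steroid hydroxylase and lyase that cytochrome b5 assists and that the adult mouse adrenal cortex is known to lack, read 1104 counts in WT replicate 3 and 1 to 20 elsewhere.

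Mgst1 (chromosome 6, 138140316 to 138156755, plus strand) was the other highly abundant gene. WT libraries had 818, 796 and 1433 CPM of it, and VEGF/LysM libraries 645, 928 and 1135 CPM. Replicate 3 was the highest of each group, and the groups overlapped. Per 1000 fasciculata counts Mgst1 gave 44.7 in WT replicate 3 against 11.2 to 22.0 elsewhere. The log2 fold change of Mgst1 was -0.17 ± 0.32 (SE; -0.92 to 0.58), and it turned to 0.16 ± 0.23 (-0.37 to 0.69) without WT replicate 3. Srd5a1 (chromosome 13, 69573449 to 69611442, minus strand) had 36.4, 37.3 and 41.4 CPM in the WT libraries and 38.7, 25.5 and 23.1 CPM in the VEGF/LysM libraries. On the CPM scale WT values were close together, and 1 VEGF/LysM library lay among them while the other 2 were lower. Per 1000 fasciculata counts WT replicate 3 stood above the rest, with 1.29 against 0.449 to 0.768 elsewhere. Srd5a1 had a log2 fold change of -0.40 ± 0.22 (SE; -0.92 to 0.12), and -0.34 ± 0.23 without WT replicate 3. It kept its sign in each of 18 alternative fits (-0.67 to -0.19) and passed in none of them (adjusted p from 0.747 to 1.0 over edgeR, limma-voom and DESeq2).

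Counted over the 10 genes, edgeR's quasi-likelihood test called 0, and it called 0 of 16300 genes tested (0%). At an unadjusted p under 0.05 it found 0 of the 10, against 2.82% of all genes. On the CPM scale the groups were separate for 0 of the 10, against 5.95%. Log2 fold changes were above 0 for 5 of the 10 (50.3% of all genes), with a median of -0.061 (0.0013 over all genes). Without WT replicate 3 edgeR again called 0 of the 10, against 1 of 16659 genes (0.006%), and 7 of the 10 were above 0 (51.5% of all genes), with a median of 0.13 (0.0080 over all genes). Akr1b7 and Aldh1a1 were the 2 of the 10 at an unadjusted p under 0.05 there, against 2.09% of all genes. The same 2 genes had all VEGF/LysM libraries above WT replicates 1 and 2, which held for 7.87% of all genes, and 0 of the 10 had them all below (6.5%).

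WT replicate 3 was at least 2 times the next highest library for 3 of the 10 genes, Aldh1a1, Aldh1a7 and Cyb5a, and for 7.37% of all genes tested. None of the 10 met that mark in any other library, where it held for 0.0307% to 0.515% of all genes. On the CPM scale WT replicate 3 was the highest library for 6 of the 10 (28.4% of all genes) and the lowest for the other 4 (29.7%), Akr1b3, Akr1b8, Abcb1b and Abcb1a. Per 1000 fasciculata counts Abcb1b alone of those 4 remained lowest in WT replicate 3, Akr1b8 became highest, and Akr1b3 and Abcb1a lay within the range of the other libraries. On the CPM scale Akr1b7, Mgst1 and Srd5a1 were highest in WT replicate 3 by 1.18, 1.26 and 1.07 times the next library. Per 1000 fasciculata counts these ratios were 1.89, 2.03 and 1.68. Per transcript length, scaled without TMM, WT replicate 3 was the highest for none of these 3. It lay below VEGF/LysM replicate 3 for Akr1b7 (1863 against 2239) and Mgst1 (2022 against 2267). For Srd5a1 it had 25.8, below WT replicates 1 and 2 (30.9 and 34.3) and VEGF/LysM replicate 1 (35.0).

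**Figure D3:**
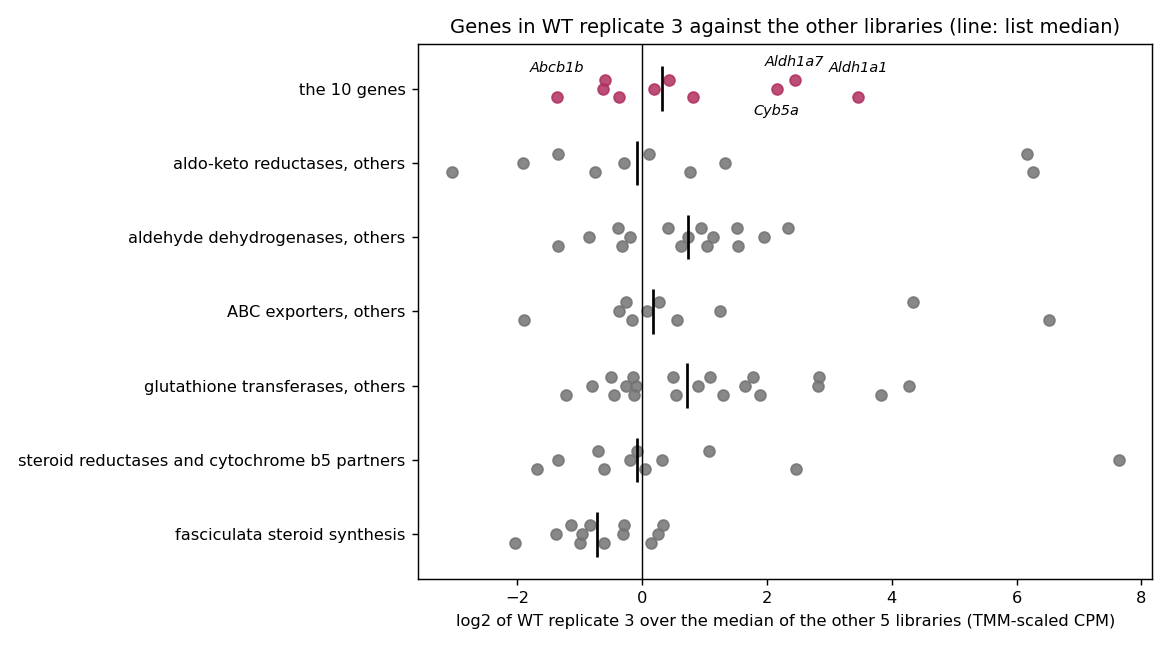
Log2 ratio of WT replicate 3 to the median of the other 5 libraries (TMM-scaled CPM) for the 10 genes (red) and for the tested genes of 6 related lists (grey); black lines are list medians. The 10 genes spread from -1.37 (Abcb1b) to 3.46 (Aldh1a1), while the fasciculata steroid synthesis list has a median of -0.73.

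Levels of different genes were compared per kilobase of the longest coding transcript, scaled to the same total in each library. On that scale the medians of the 6 libraries were 1913 for Akr1b7, 1734 for Mgst1, 505 for Abcb1b, 401 for Akr1b3, 357 for Cyb5a and 186 for Akr1b8 (185.5). The 4 scarcer genes were Aldh1a1 (57.4), Aldh1a7 (32.1), Srd5a1 (28.4) and Abcb1a (20.5). Over the 5 libraries other than WT replicate 3, Akr1b7 (865 to 2239) and Mgst1 (1321 to 2267) overlapped. Abcb1b (399 to 559) overlapped with Akr1b3 (335 to 473) and that with Cyb5a (294 to 455), and so did Aldh1a7, Srd5a1 and Abcb1a, which all lay between 18.1 and 42.4. Akr1b8 (159 to 221) overlapped with no neighbour. In WT replicate 3 Cyb5a (1124) and Aldh1a1 (396) stood above Abcb1b (137).

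Among related genes of the same families, none passed in either fit, and several differences depended on WT replicate 3. Of 14 further aldo-keto reductases 10 were tested, with 4 above 0 and a median log2 fold change of -0.11, or 3 of 9 above 0 and -0.11 without WT replicate 3. Akr1c18, a progesterone-metabolising enzyme of the X-zone, had 1717, 1603 and 207 CPM in the WT libraries and a VEGF/LysM mean of 1906 CPM. The resulting log2 fold change was 0.70 ± 0.76 (SE) with all libraries, 0.19 ± 0.39 without WT replicate 3 and -0.28 without replicate 3 of both groups, so its direction turned. Akr1d1, the steroid 5-beta-reductase, had a log2 fold change of 0.42 ± 0.37 and of 0.11 ± 0.22 without WT replicate 3.

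Of 17 further aldehyde dehydrogenases 15 were tested, with 4 above 0 and a median of -0.33, which became 0.054 with 8 above 0 without WT replicate 3. Aldh2, the mitochondrial enzyme that oxidises acetaldehyde, led them in level, with log2 fold changes of -0.21 ± 0.24 (SE) and of -0.055 ± 0.21 without WT replicate 3. Aldh4a1, of proline breakdown, had the smallest p (-0.72 ± 0.27, unadjusted p = 0.0329, adjusted p = 0.999 in edgeR's test), and -0.38 ± 0.16 without WT replicate 3. Of 13 further ABC exporters 10 were tested, with 6 above 0 and a median of 0.12, or 9 above 0 and 0.15 without WT replicate 3. Abca1, the cholesterol exporter, had log2 fold changes of 0.28 ± 0.20 and of 0.38 ± 0.20 without that library. Abcb4, the phospholipid exporter of bile, had 2082 counts in WT replicate 3 and 17 to 52 in the others.

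Of 22 further glutathione transferases 20 were tested, with 5 above 0 and a median of -0.36, or 6 above 0 and -0.073 without WT replicate 3. Gstm1 had 316, 279 and 1003 CPM in the WT libraries and a VEGF/LysM mean of 284 CPM. The resulting log2 fold change was -0.91 ± 0.49 (SE) with all libraries and -0.072 ± 0.15 without WT replicate 3. The mean of WT replicates 1 and 2 was 298 CPM. Gstk1 had -0.068 ± 0.27, and -0.27 ± 0.21 without that library. Of 12 steroid reductases and partners of cytochrome b5, 11 were tested, with 5 above 0 and a median of -0.017, or 5 above 0 and -0.011 without WT replicate 3. Cyb5b, the mitochondrial form of cytochrome b5, had 0.093 ± 0.25, and -0.091 ± 0.20 without it. WT replicate 3 stood at 0.652 times the median of the other libraries for Cyb5b, below it rather than above as for Cyb5a. All 12 fasciculata steroid synthesis genes were above 0 (median 0.17), but 6 of 12 were so without WT replicate 3 (median -0.018). Cyp21a1, the 21-hydroxylase, turned from 0.14 ± 0.34 to -0.15 ± 0.20, and Hsd3b1, the 3-beta-hydroxysteroid dehydrogenase, from 0.18 ± 0.40 to -0.16 ± 0.21. Cyp11b1, of the smallest p in this list, kept its direction, with 0.44 ± 0.23 and 0.31 ± 0.21 without WT replicate 3. Its groups did not overlap on the CPM scale, which held for 5.95% of all genes tested.

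Against 7.37% of all genes tested, WT replicate 3 was at least 2 times the next highest library for 2 of 10 aldo-keto reductases, 4 of 15 aldehyde dehydrogenases, 2 of 10 ABC exporters, 6 of 20 glutathione transferases, 2 of 11 steroid reductases and partners of cytochrome b5, and 0 of 12 fasciculata steroid synthesis genes. The hepatocyte marker sum of that library (89814 CPM) stands beside these counts, and its part in them was not tested. Only tested genes entered the counts and the 7.37%. Some of them passed the filter through WT replicate 3, the library where they were high, so these counts partly reflect the filter. Akr1c12 had 497 counts there and 3 to 13 elsewhere, and it was not tested without that library. Cyp17a1 had 1104 counts there and 1 to 20 elsewhere. The filter left out Akr1c6 (7137 counts in WT replicate 3, 0 to 44 elsewhere), Abcb11 (5153, 0 to 18) and Aldh8a1 (2778, 0 to 5). Akr1c19, Akr1c20, Abcc2, Abcc6 and Gstm3 were left out too, each also far highest in WT replicate 3. Akr1c21, Aldh3a1, Gsta1 and Cyb5r2, likewise left out, had 0 to 17 counts in every library.

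**Figure D4:**
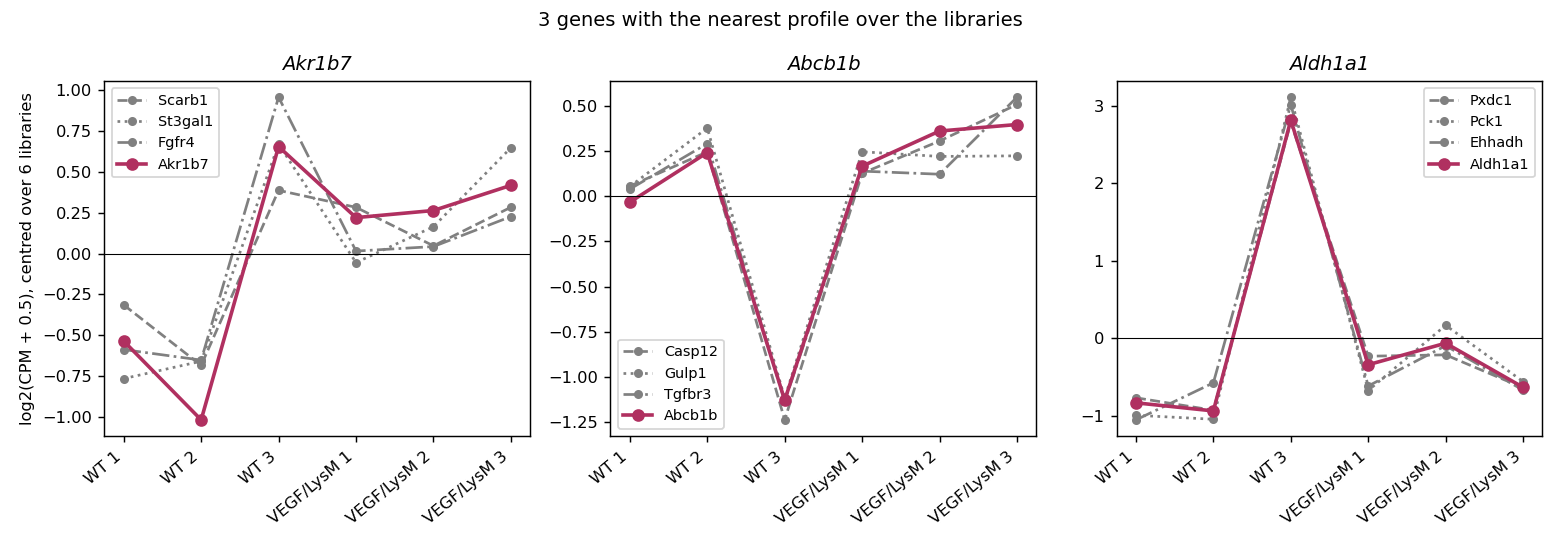
Log2(CPM + 0.5), centred over the 6 libraries, of Akr1b7, Abcb1b and Aldh1a1 (red) and of the 3 genes with the nearest profile to each (grey); lines join the values of 1 gene and imply no order. Akr1b7 and Scarb1 are low in WT replicates 1 and 2, Abcb1b is low in WT replicate 3, and Aldh1a1 is high in WT replicate 3.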

How the data were processed

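The deposited values are raw counts, whole numbers for every gene in each library. kallisto, DESeq2 1.36.0 and mm10 are named, without roles, in the submitters' processing notes; the sources used here do not state the annotation. Libraries followed Smart-seq2, per the labels' protocols, which does not mark strand. Of 54532 identifiers, 54409 matched a symbol. The members and lists were chosen with earlier results of these data known. edgeR 4.0.16 (R 4.3.3) fitted group alone with its quasi-likelihood test after filterByExpr (minimum count 10, minimum total 15; 16300 genes kept) and TMM scaling (factors 1.02 to 1.05, and 0.84 in WT replicate 3); Benjamini-Hochberg adjustment covered every gene kept, threshold 0.05. The steps were tested on simulated counts in which no library stood apart as WT replicate 3 does. That test therefore cannot show how such a library affects the fits. Shared 31-base words, lengths and coordinates came from GENCODE M21 (GRCm38, the assembly of mm10), promoters from RefSeq. Named genes were the 10 members; per related list the 2 most abundant per length and the 1 of smallest p; and 3 nearest profiles for Akr1b7, Abcb1b and Aldh1a1. Marker genes stand beside the results they touch. With all libraries, the smallest p in edgeR's test belonged to Akr1c12 (aldo-keto list, unadjusted 0.0269), Abcb4 (exporters, 0.0399) and Gstt1 (glutathione, 0.0581). In the reductase and fasciculata lists it belonged to Cyp17a1 (0.0298) and Cyp11b1 (0.0999). Akr1c12, Abcb4, Gstt1 and Cyp17a1 were far highest in WT replicate 3, with log2 fold changes of -4.98, -4.77, -1.76 and -6.15. Without that library edgeR's unadjusted p was 0.495 for Abcb4, 0.375 for Gstt1 and 0.563 for Cyp17a1. Akr1c12 was then not tested. The second most abundant aldehyde dehydrogenase and exporter were Aldh3b1 (log2 fold change 0.16, and -0.19 without WT replicate 3) and Abcc5 (0.26 and 0.21). Alternatives were other scalings and filters, a replicate block, left-out libraries, DESeq2 1.42.0, limma-voom (limma 3.58.1) with and without sample weights, a robust fit, summed paralog counts and a threshold of 0.1.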

Additional observations from a re-analysis of the deposited data

How the results depend on the processing

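None of the 10 genes was called in any of 18 alternative fits. DESeq2 returned no adjusted p for Aldh1a1, so that fit gave no verdict on it. With paralog counts summed, Abcb1a and Abcb1b, Aldh1a1 and Aldh1a7, and Akr1b7 and Akr1b8 were tested only as pairs. edgeR called 0 to 1 of all genes when each library was left out in turn, the 1 being Sumo2 without WT replicate 3. With all libraries DESeq2, limma-voom and limma-voom with sample weights called 0 genes (542, 224 and 300 at an unadjusted p under 0.05). Leaving out each library in turn gave log2 fold changes of -0.16 to 0.26 for Akr1b3, -2.26 to 0.56 for Aldh1a1, -0.37 to 0.16 for Mgst1, -1.41 to 0.041 for Cyb5a and 0.13 to 1.05 for Akr1b7. The direction of Akr1b3 turned without WT replicate 3 (-0.16) or VEGF/LysM replicate 1 (-0.093), that of Mgst1 without WT replicate 3 (0.16) or VEGF/LysM replicate 1 (0.0058), and those of Aldh1a1 (0.56) and Cyb5a (0.041) without WT replicate 3. Without replicate 3 of both groups Akr1b3 (-0.045), Aldh1a1 (0.70) and Aldh1a7 (0.037) turned, and with sample weights in limma-voom Aldh1a1 did (0.30). The cause was not tested. WT replicate 3 was at least 3 times the next library for 2 of the 10 genes. Same-numbered libraries deviated together with r of 0.071, -0.003 and 0.25 over genes and did not all match best with their own number, so the numbers were not taken to pair them; a replicate block called 0 of the 10 and 0 of all genes, with 5 of the 10 above 0.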

Other observations

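Gm13857, an annotated transcribed pseudogene that overlaps the end of Akr1b7 on the opposite strand, shared 19.2% of the 31-base words of Akr1b7. Its counts were 728, 7 and 567 in WT and 111, 52 and 1792 in VEGF/LysM, at most 8.57% of those of Akr1b7. Without strand, reads of Akr1b7 and Gm13857 cannot be told apart where both overlap. Akr1b3 shared 90.8% of its words with other annotated genes, of which Gm38056, Gm6644, Gm6736 and Gm12138, the 4 that shared most, had 0 to 21 counts in any library. Srd5a1 shared 17.1% with Gm17108, which had 0 to 4 counts. Mgst1 and Cyb5a shared 0%.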
